A study of Mus musculus with 44 samples.

Results

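BXD31 is 1 of 22 recombinant inbred mouse strains whose blood-forming stem and progenitor cells were profiled. Its 2 arrays are described here against the 18 arrays of 9 other strains whose titles hold the same array code. Arrays that share a code are called an array series here, and the titles do not say what the code stands for. The arrays were chosen by their titles alone, 2 of 44 arrays in all, and no measured value entered the choice. BXD strains descend from crosses of C57BL/6 and DBA/2 mice, and each is homozygous for its own mixture of both parental genomes. The other 9 strains were BXD6, BXD8, BXD11, BXD12, BXD32, BXD33, BXD38, BXD40 and BXD42. The labels name no treatment for any strain. A further 12 strains on 24 arrays of another series entered the normalization and the estimate of the spread between arrays, but not the comparison. For each sample the femur and tibia marrow of 3 female mice aged 3 to 6 months was pooled, red cells were lysed, and cells of the 5% with the least lineage staining that carried Sca-1 and c-kit were sorted. The lineage antibodies included TER119, which binds cells of the red lineage. A pool of mice averages over its members, and nothing in the labels says that both arrays of a strain came from separate pools, so p-values measure only the spread between arrays of a strain, which may be technical.

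Lin-Sca-1+c-kit+ cells hold the stem cells that renew blood for life together with early progenitors that have not yet committed to 1 lineage. As such cells turn towards the red lineage, the transcription factors Gata1 and Klf1 come on and act at the globin genes, whose alpha and beta chains form haemoglobin. Mice of the C57BL/6 and DBA/2 strains carry different haplotypes of the adult beta-globin genes, named Hbb-bs and Hbb-bt in C57BL/6 and Hbb-b1 and Hbb-b2 in DBA/2.

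Levels are log2 intensities after quantile normalization, with a floor of 4, and a difference is the BXD31 mean minus the mean of the other 9 strain means. Of 12422 probe sets that are not controls, 7453 were bright enough to be tested, and they stood for 5624 genes. Of the sort markers, only c-kit could be checked by name. Kit, the receptor c-kit, had levels of 9.13 and 9.62 on the BXD31 arrays, against 8.13 to 9.62 (median 9.06) on the other 18 arrays. Cd34, a surface sialomucin of progenitors, had 8.96 and 9.29 in BXD31, against 8.14 to 9.19 (median 8.70). Xist, the RNA of the inactive X chromosome, had 11.69 and 11.31 in BXD31, against 9.96 to 11.93 (median 10.73), and all mice were female. None of the 3 passed the test (limma, adjusted p = 1.00 for each). The gene of Sca-1 has no named probe set here.

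The BXD31 arrays lay within the range of the others in quality. The 3 prime minus 5 prime difference of the Gapdh control, which grows as RNA is degraded, was 3.18 and 3.13 on the log2 scale in BXD31, against 3.05 to 4.21 (median 3.62) on the other arrays, so both lay towards the low end. Values under 16 made up 14.5% and 15.4% of the BXD31 arrays, against 12.98% to 18.1% (median 14.9%). The 2 BXD31 arrays correlated with r = 0.931 over the tested probe sets, and with r = 0.0706 after each probe set was centred on the mean of the 10 strains. The centred r of the other strains ran between -0.246 and 0.326 (median 0.103), so BXD31 ranked 6 of 10, and its arrays were each closest to an array of another strain, BXD32 and BXD33. The centred r was negative for BXD40 (-0.246), BXD33 (-0.190) and BXD42 (-0.135). The 2 arrays labelled BXD40 also lay far apart from each other at some genes, as did those labelled BXD42. The SD over the 2 arrays was 2.70 and 2.04 at Pdxdc1 and 1.14 and 1.24 at Erdr1. At both genes the arrays lay closer across these labels than within them. The first BXD40 and second BXD42 arrays had 9.28 and 9.09 at Pdxdc1 and 11.31 and 11.12 at Erdr1. The second BXD40 and first BXD42 arrays had 5.46 and 6.21, and 12.92 and 12.88. The cause was not tested, and means of BXD40 and BXD42 follow the labels. The counts of calls, and the values of some genes, are given with and without BXD40 and BXD42.

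Few genes set BXD31 apart. Of the 7453 tested probe sets, 19 (0.255%) passed at an adjusted p under 0.05 (limma), 4 higher (0.0537%) and 15 lower (0.201%) in BXD31. Counted as genes by their brightest probe set, 2 of 5624 were higher (0.0356%) and 10 were lower (0.178%). The genes that fell included the alpha and beta globins and the red cell surface gene Rhd. Larger falls were found at the brightest probe sets of Erdr1 and Pdxdc1. The dimmer probe set of Erdr1 differed by only -0.27, and other probe sets of Pdxdc1 ran the other way (1.09 and 0.84). The genes that rose were Spg21 and Cnn3. The median difference over all tested genes was 0.03. An unadjusted p under 0.05 (limma) was found at 204 probe sets, fewer than this threshold would be expected to pass if no probe set differed. This depended on the model. The count was 416 with array weights and 442 with the Gapdh difference as a covariate, both more than expected. With the other strains of the series tested in the same way, BXD6 had 111 probe sets past the threshold, BXD11 53, BXD38 30 and BXD40 4.

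These tests set BXD31 against the spread between arrays of a strain, not against the spread among strains. With strain means as the units, 0 of the 7453 probe sets passed (limma). An unadjusted p under 0.05 was found at 96, again fewer than expected at this threshold if no probe set differed. A call therefore says that the BXD31 arrays differ from the mean of the other strains by more than arrays of 1 strain differ, and strains close to BXD31 in level are named below for most of the called probe sets. Of the 19 probe sets, BXD31 was the lowest strain at 8, the highest at 3 and neither at 8. Both BXD31 arrays lay above all 18 others at 19 probe sets (0.255% of those tested) and below them at 18 (0.242%), and 7 of these 37 also passed the test. Without BXD40 and BXD42, 27 probe sets passed, 12 higher and 15 lower, and 17 of the 19 were among them. Snhg1 and Fmc1 (-1.51, limma, adjusted p = 0.0901) lost the call. Hars moved to -2.74 and Ctse to -1.42, and both kept it. A probe set of AI506816, not among the 19, gained a call (1.83, limma, adjusted p = 5.11e-03). Without the first BXD31 array, 6 probe sets passed, and without the second 11, each fit resting on 1 array assumed to vary like those of the other strains. The probe sets still called in both were those of Hbb-b2, Erdr1, 101869_s_at and 102823_at. Hars, Rhd, Spg21, 102348_at and 96215_f_at lost the call without the first array and 93321_at without the second. Hba-a1, 162457_f_at, Tent5c, Ctse, Snhg1, Atp6v1g1, Pdxdc1, Cnn3 and Fmc1 lost it when either array was left out.

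**Figure D1:**
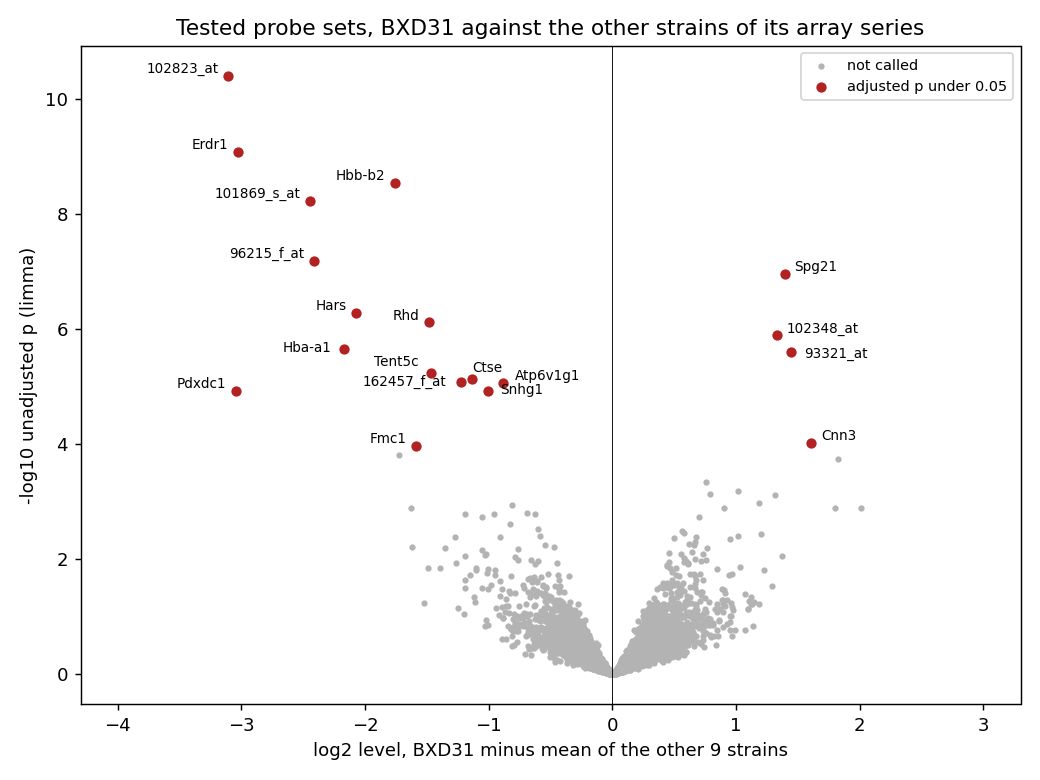
Each point is 1 of the 7453 tested probe sets. The x axis is the log2 level in BXD31 minus the mean of the other 9 strains and the y axis is -log10 of the unadjusted p of limma. The 19 red, named points passed at an adjusted p under 0.05, with 15 left of 0 and 4 right of it.

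Globin genes and Rhd held 5 of the 15 probe sets that fell in BXD31. Promoters of 3 red-lineage genes are shown because their probe sets fell, each with the letters GATAAG, the core bound by GATA factors, in capitals. They are the 250 bases before the start of the gene, read 5' to 3' on the strand of the gene, from RefSeq with build GRCm38.p6.
Hba-a1, chr11:32283422-32283671, plus strand: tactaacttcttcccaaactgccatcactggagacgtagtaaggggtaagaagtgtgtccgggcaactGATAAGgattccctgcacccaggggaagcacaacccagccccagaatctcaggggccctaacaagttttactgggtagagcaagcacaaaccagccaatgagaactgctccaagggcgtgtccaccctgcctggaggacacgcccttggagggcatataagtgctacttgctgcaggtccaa
Hbb-bt, chr7:103813924-103814173, minus strand: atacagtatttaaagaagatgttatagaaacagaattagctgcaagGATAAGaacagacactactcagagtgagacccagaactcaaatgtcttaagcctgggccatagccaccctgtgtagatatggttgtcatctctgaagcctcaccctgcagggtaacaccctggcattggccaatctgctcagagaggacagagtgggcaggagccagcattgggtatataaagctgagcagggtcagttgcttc
Rhd, chr4:134864286-134864535, plus strand: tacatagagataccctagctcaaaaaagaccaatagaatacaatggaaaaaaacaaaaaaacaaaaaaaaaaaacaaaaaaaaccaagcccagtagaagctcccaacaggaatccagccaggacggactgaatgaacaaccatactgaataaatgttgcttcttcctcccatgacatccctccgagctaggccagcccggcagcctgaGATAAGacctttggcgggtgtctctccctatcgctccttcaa
GATAAG, read on either strand as GATAAG or CTTATC, occurred once in each, starting 182 bases before the gene start in Hba-a1, 204 in Hbb-bt and 42 in Rhd. It occurred in 6.55% of the 32851 promoters of the table over the same length. Of the called genes, 8 had a promoter there, and 3 of these held it, namely Hba-a1, Rhd and Spg21. Among the tested red-lineage markers that did not pass, it was found in 2 of 5, Klf1 and Rhag. CACCC, the core bound by Klf1, was more common, at 52.0% of all promoters (GGGTG on the other strand), 4 of the 8 called genes and 5 of the 5 markers that did not pass. CCAAT, or ATTGG on the other strand, was in 33.8% of all promoters, in 4 of the 8 called genes and in 3 of the 5 markers that did not pass. A match of letters is not a bound site, and the sequences are those of the reference strain, not of BXD31.

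Hbb-b2 encodes a beta-globin chain of adult haemoglobin. Its level was 7.89 and 7.97 on the BXD31 arrays, against 8.10 to 10.63 (median 9.85) on the other 18 arrays. Both BXD31 arrays were below all others, and the difference was -1.76 ± 0.20 (SE), a 3.38-fold lower level (limma, adjusted p = 7.13e-06). A second beta-globin probe set, 101869_s_at, is assigned to Hbb-bt, Hbb-bs, Hbb-b2 and Hbb-b1 together. It had levels of 7.98 and 8.27 in BXD31, against 8.73 to 12.01 (median 10.54), again with no overlap, and a difference of -2.45 ± 0.29 (adjusted p = 1.11e-05, limma). The 4 genes are near-identical copies, so neither probe set can be read as the level of 1 of them, and whether the haplotype of a strain changes how its transcript binds the probes was not tested.

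Alpha globin was low in BXD31 as well, but not only there. Hba-a1 had levels of 7.58 and 7.45 in BXD31, against 7.07 to 11.70 (median 9.50) on the other arrays. The difference was -2.17 ± 0.36 (SE), or 4.50-fold lower (limma, adjusted p = 1.65e-03), yet BXD31 ranked second lowest, above BXD38 at 7.44 ± 0.53 (SD, n = 2). The probe set 162457_f_at, assigned to Hba-a2 and Hba-a1 together, had 10.48 and 10.07 in BXD31, against 9.46 to 12.59 (median 11.56), with a difference of -1.23 ± 0.22 (adjusted p = 4.30e-03, limma). Here too BXD38, at 9.85 ± 0.56, was the lowest strain. Hba-x, the embryonic alpha-like gene next to Hba-a1, differed by -0.35 and did not pass (adjusted p = 1.00).

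Rhd, the mouse gene of the Rh blood group protein of the red cell membrane, had levels of 5.46 and 6.10 in BXD31, against 6.34 to 7.98 (median 7.33) on the other arrays. BXD31 was the lowest strain with no overlap, at -1.48 ± 0.23 (SE), 2.79-fold lower (limma, adjusted p = 7.14e-04). Tent5c, a poly(A) polymerase that lengthens the tails of messenger RNAs, had 6.46 and 6.19 in BXD31, against 6.44 to 9.06 (median 7.60). It differed by -1.47 ± 0.26 (limma, adjusted p = 3.63e-03), and 1 BXD31 array overlapped with the lowest arrays of the others.

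Of the 11 tested red-lineage markers, 3 fell in BXD31. They were Hba-a1, Hbb-b2 and Rhd, against 0.178% of all tested genes that were lower, and the median difference of the 11 was -0.21, against 0.03 over all tested genes. Without the first BXD31 array the count was 1, Hbb-b2, and without the second it was 2, Hbb-b2 and Rhd. Of the 22 genes listed, 15 had a named probe set and 11 were bright enough to be tested. Klf1, the factor that drives adult globin transcription, had 8.07 and 7.95 in BXD31, against 7.84 to 8.61 (median 8.30), a difference of -0.28 ± 0.25. Gata1, the central factor of the red lineage, had 6.97 and 7.17 in BXD31, against 6.18 to 7.94 (median 7.18), a difference of -0.15 ± 0.23. Slc4a1, the anion exchanger of the red cell membrane, differed by -0.21, Rhag, the partner of the Rh protein, by -0.27, and Aqp1, a water channel, by -0.11. Tfrc, the transferrin receptor, differed by 0.23, the carbonic anhydrase gene Car2 by 0.20 and the membrane skeleton gene Ank1 by 0.02. None of these 8 passed (limma, adjusted p = 1.00 for each, and 0 had an unadjusted p under 0.05). The median 95% confidence interval over all tested probe sets reached 0.544 to either side, before any adjustment for the number of probe sets. Larger shifts could also miss the adjusted threshold. Differences of 1.02 at Wdr26 and 0.79 at F2r did not pass, while -0.89 at Atp6v1g1 did. A marker that did not pass may therefore still have shifted. Averaged over the 11 markers, the level was 7.90 and 7.92 in BXD31, against 7.88 to 8.66 (median 8.54) on the other arrays. In sorted bulk cells, fewer cells of the red lineage and less of these RNAs per cell cannot be told apart, and the part of residual red cells left after lysis in these values was not tested.

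BXD38 had low globin levels as well. Hbb-b2 stood at 7.93 ± 0.06 (SD, n = 2) in BXD31 and 8.22 ± 0.17 in BXD38, while the next strain up, BXD12, was at 9.32 ± 0.19. BXD31 and BXD38 were then set against each other, a comparison chosen after these levels were seen. The difference of BXD31 minus BXD38 was -0.28 for Hbb-b2 (95% confidence interval -0.84 to 0.27), 0.07 for Hba-a1 (-0.92 to 1.07), -0.19 for Tent5c (-0.90 to 0.53) and -0.81 for Rhd (-1.44 to -0.17), and none passed (limma, adjusted p = 1.00 for each). Rhd thus had an interval that left out 0 but did not pass the adjustment over all probe sets. BXD38 was within 1 log2 unit of BXD31 at 13 of the 19 called probe sets and was the nearest strain at 11 of them, and the next strain by this count, BXD8, was within 1 unit at 7.

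**Figure D2:**
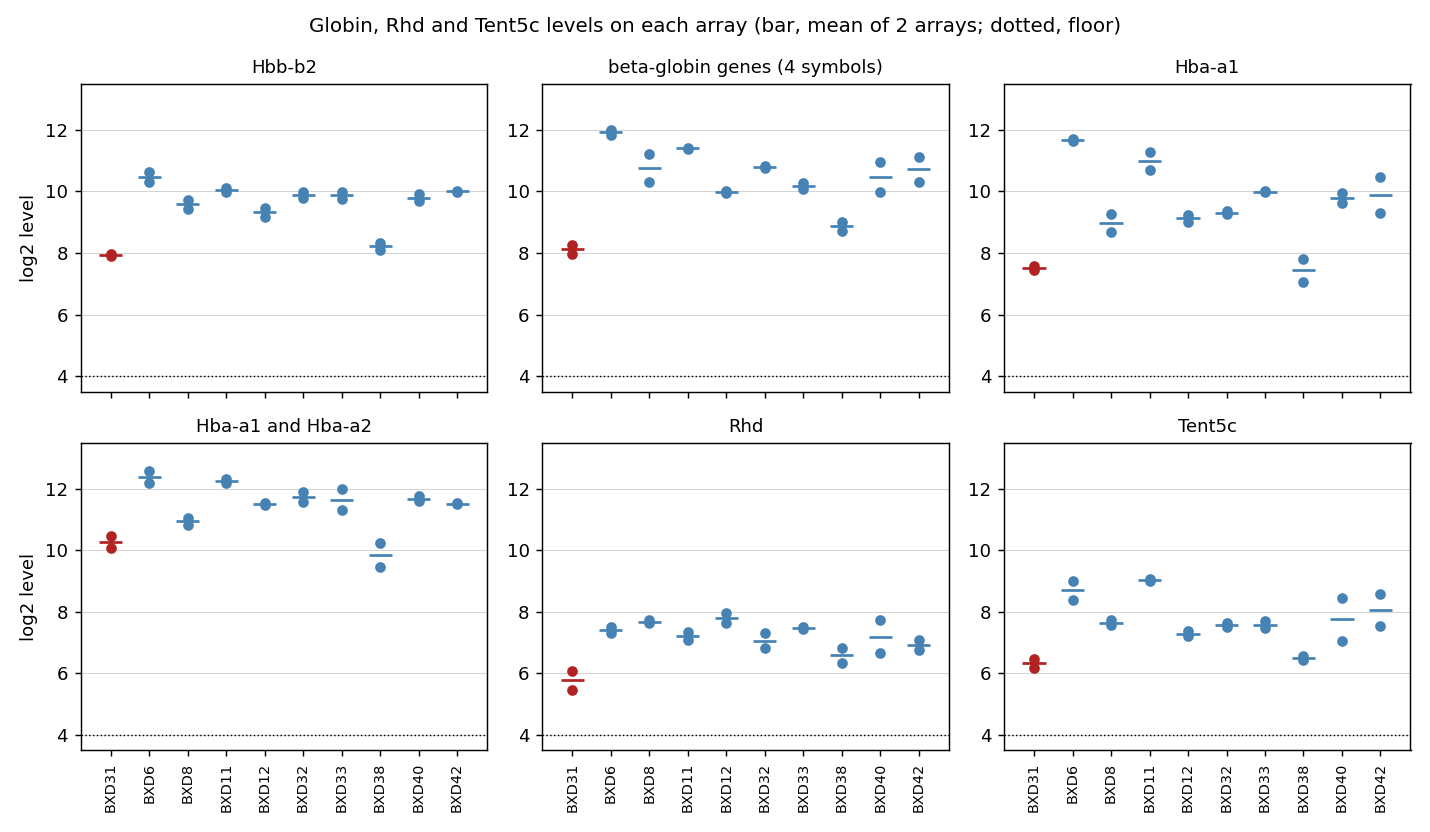
Log2 level (y axis) on each array of the 10 strains (x axis, BXD31 in red at the left), for 4 globin probe sets, Rhd and Tent5c; bars are means of 2 arrays and the dotted line is the floor of 4. BXD31 and BXD38 are the 2 lowest strains in every panel.

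The 2 strains differed elsewhere. Of 7453 probe sets, 11 (0.148%) passed between BXD31 and BXD38. Mtmr9, a phosphatase-like gene of the myotubularin family, was at 9.41 in BXD31 and 6.52 in BXD38, a difference of 2.89 ± 0.43 (SE; limma, adjusted p = 1.46e-03). Chil3, a chitinase-like gene of myeloid cells, was at 8.49 in BXD31 and 6.42 in BXD38, a difference of 2.07 ± 0.27 (limma, adjusted p = 2.78e-04). F2r, the thrombin receptor, was at 11.40 in BXD31 and 9.79 in BXD38 (1.61 ± 0.28, limma, adjusted p = 5.14e-03). Erdr1 and Pdxdc1, described below, differed by -2.54 and -4.16, and Spg21 differed by 1.67. The probe set assigned to Mir686 differed by -1.91, that of 102823_at by -2.04 and that of 92779_f_at by 2.17. The 2 probe sets of AI506816 went opposite ways, by 4.04 and -1.67.

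Several of the other genes that fell in BXD31 were also low in 1 or more of the other strains. Erdr1, named for erythroid differentiation, had levels of 8.40 and 8.95 in BXD31, against 8.87 to 12.92 (median 11.99) on the other arrays. It differed by -3.03 ± 0.33 (SE), 8.15-fold lower (limma, adjusted p = 3.14e-06). BXD8, at 8.88 ± 0.01 (SD, n = 2), shared the low level of BXD31 at 8.68 ± 0.39, and the next strain was BXD38 at 11.21 ± 0.26. A dimmer probe set of Erdr1 showed -0.27 and did not pass (adjusted p = 1.00). The unnamed probe set 96215_f_at had the same pair of low strains, BXD31 at 7.91 ± 0.55 and BXD8 at 7.89 ± 0.18, with a difference of -2.41 ± 0.33 (limma, adjusted p = 9.81e-05).

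Pdxdc1, a gene of the pyridoxal-dependent decarboxylase family, had 4.80 and 4.84 in BXD31, against 4.74 to 9.40 (median 9.11) on the other arrays. The strains split into a low and a high group, with BXD31, BXD8 (4.84 ± 0.14) and BXD12 (5.16 ± 0.01) low, and the difference was -3.04 ± 0.57 (limma, adjusted p = 5.32e-03). Its other tested probe set ran the other way, at 8.23 and 8.16 in BXD31, against 5.03 to 8.55 (median 7.19), a difference of 1.09 that did not pass (adjusted p = 1.00). A further probe set of Pdxdc1, too dim to be tested, differed by 0.84. Without BXD40 and BXD42, whose arrays lay on both sides of the split, the called probe set differed by -3.15 (limma, adjusted p = 2.74e-07).

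Hars, the histidyl-tRNA synthetase, had 4.75 and 4.80 in BXD31, against 4 to 9.08 (median 8.05). The difference was -2.07 ± 0.31 (limma, adjusted p = 5.56e-04), but BXD38 at 4.71 ± 0.11, BXD42 at 4.63 ± 0.88 and BXD40 at 4.37 ± 0.12 had means slightly lower than that of BXD31, 4.77 ± 0.04, and BXD8 was at 5.45 ± 1.06. It was the only 1 of 17 tested aminoacyl tRNA synthetases to pass, and the median of the 17 was -0.12. Kars, for lysine, differed by -0.35 and Sars, for serine, by 0.39, and neither passed (adjusted p = 1.00).

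Atp6v1g1, a subunit of the vacuolar proton pump, was the lowest in BXD31 with no overlap. Its levels were 9.05 and 8.99 in BXD31, against 9.17 to 10.20 (median 9.93), a difference of -0.89 ± 0.16 (limma, adjusted p = 4.30e-03). Snhg1, a host transcript of small nucleolar RNAs, had 9.11 and 9.11 in BXD31, against 8.70 to 11.34 (median 10.44), with a difference of -1.005 ± 0.19 (limma, adjusted p = 5.32e-03). BXD38 and BXD8 were lower than BXD31 at Snhg1, which did not pass without BXD40 and BXD42 (-0.77, adjusted p = 0.0549). Ctse encodes cathepsin E, an aspartic protease of the endosome. It had 7.48 and 7.62 in BXD31, against 6.995 to 10.39 (median 8.06), a difference of -1.14 ± 0.20 (limma, adjusted p = 4.20e-03). BXD38 was lower at 7.06 ± 0.09, BXD42 at 7.62 ± 0.31, BXD40 at 7.75, BXD8 at 7.89 and BXD12 at 8.03 were near, and the other 2 probe sets of Ctse showed 0.65 and 0.17 without passing (adjusted p = 1.00). Fmc1, which in yeast helps to assemble the mitochondrial ATP synthase, passed by its dimmer probe set, with 5.79 and 5.77 in BXD31, against 4.49 to 8.68 (median 7.43), a difference of -1.59 ± 0.35 (limma, adjusted p = 0.0424). BXD38 was lower at 5.45 ± 1.35. The brighter probe set of Fmc1 differed by 0.01, and the call was lost in 28 of 42 alternatives.

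The probe set with the lowest p in BXD31 has no gene name. 102823_at had levels of 6.30 and 5.52 in BXD31, against 7.59 to 10.81 (median 8.86) on the other arrays. No other strain was within 1 log2 unit, the nearest being BXD38 at 7.94 ± 0.30, and the difference was -3.10 ± 0.29, 8.60-fold lower (limma, adjusted p = 2.97e-07).

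The genes that rose were fewer. Spg21, which encodes maspardin and whose human counterpart is mutated in a form of spastic paraplegia, had 11.86 and 11.69 in BXD31, against 9.78 to 11.62 (median 10.12) on the other arrays. Both BXD31 arrays were above all others, by 1.39 ± 0.19 (SE) over the mean of the strains, or 2.62-fold (limma, adjusted p = 1.35e-04). BXD11 at 11.51 ± 0.15 and BXD6 at 11.45 ± 0.07 formed a high group with BXD31, apart from the other 7 strains, which lay between 9.96 and 10.20. Cnn3, an actin-binding calponin, had 7.40 and 8.15 in BXD31, against 4.32 to 7.89 (median 6.23), a difference of 1.60 ± 0.35 (limma, adjusted p = 0.0390). BXD6 and BXD42, both at 7.39, were near, and the call was lost in 21 of 42 alternatives. The unnamed probe set 102348_at had 10.54 and 10.24 in BXD31, against 7.84 to 9.90 (median 9.16), with no overlap and a difference of 1.33 ± 0.21 (limma, adjusted p = 1.07e-03). BXD38 at 9.72, BXD33 at 9.67 and BXD32 at 9.56 were the nearest strains. Probe set 93321_at, assigned to the interferon-inducible gene Ifi203, a pseudogene and a further locus, had 7.66 and 8.11 in BXD31, against 4 to 8.16 (median 7.45). Its difference of 1.45 ± 0.24 (limma, adjusted p = 1.71e-03) came with BXD33, BXD8 and BXD11 at or near the floor, and BXD6 was higher than BXD31 at 7.94.

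**Figure D3:**
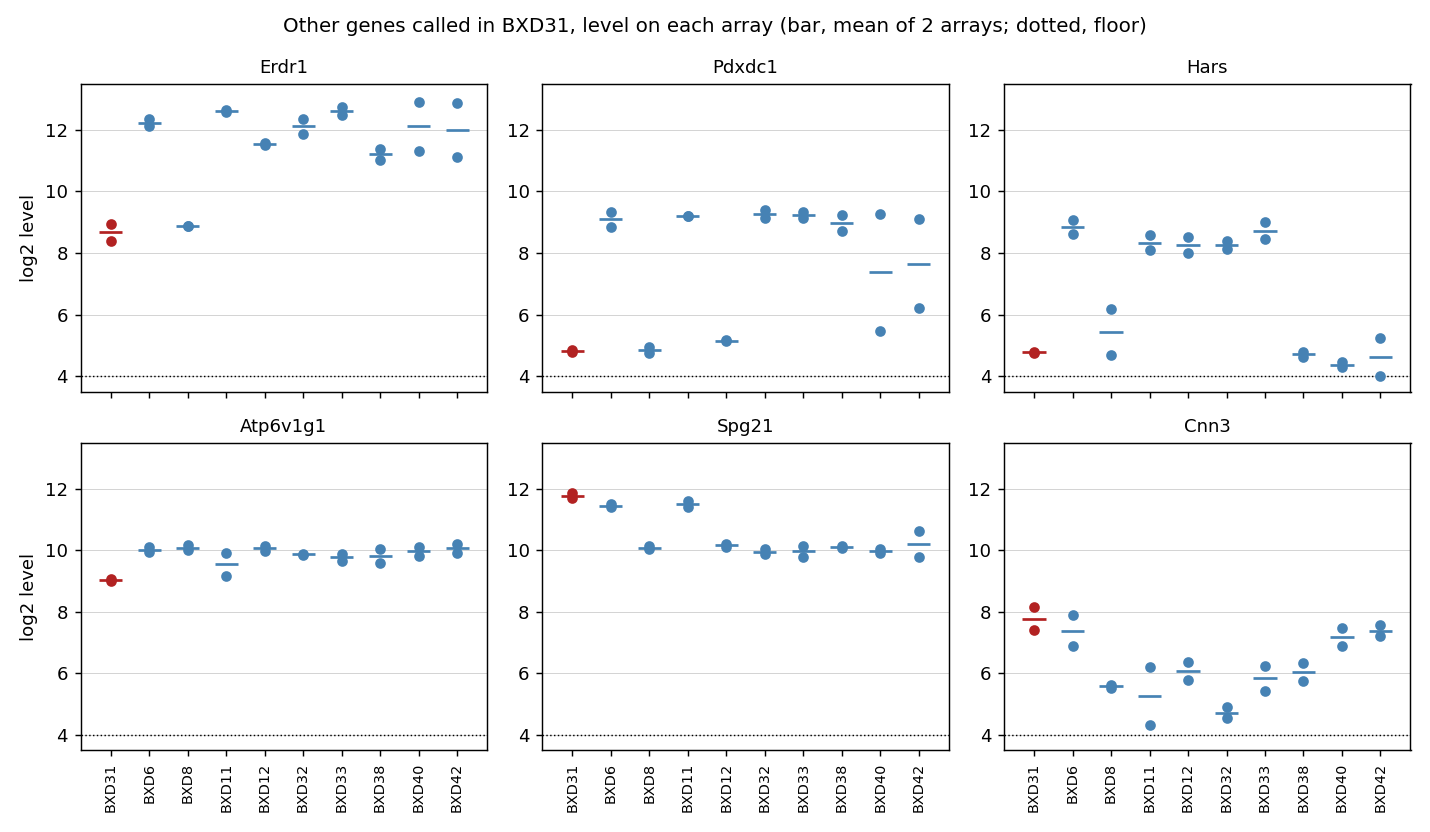
Log2 level (y axis) on each array of the 10 strains (x axis, BXD31 in red at the left), for 6 other called genes; bars are means of 2 arrays and the dotted line is the floor of 4. Low or high levels of BXD31 were shared with BXD8 at Erdr1, with BXD8 and BXD12 at Pdxdc1, with BXD38, BXD40 and BXD42 at Hars, and with BXD6 and BXD11 at Spg21.

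The called genes were scattered over the genome. The 12 called genes with a place in the RefSeq gene order, Hbb-b2 not among them, lay on 10 chromosomes, and 0 of their 23 tested neighbours passed. The median size of the difference at those neighbours was 0.106, and the largest was 0.64 at Ptbp2, which lies next to Cnn3.

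The genes with the next smallest p did not pass. Fli1, an ETS transcription factor of stem cells and megakaryocytes, had levels of 7.90 and 7.87 in BXD31, against 4.35 to 8.02 (median 6.10), a difference of 1.82 ± 0.42 (limma, adjusted p = 0.0642). BXD32 was as high, at 7.93 ± 0.12, and all others were at 6.37 or below. It passed in 11 of 42 alternatives, among them the values without quantile normalization (adjusted p = 0.0282). Wdr26, part of a ubiquitin ligase, showed 1.02 (adjusted p = 0.211), with its 3 other probe sets at 0.16, 0.17 and -0.14. F2r showed 0.79 (adjusted p = 0.227), with BXD33 and BXD11 above BXD31, and its other tested probe set 0.26. Diaph3, a formin that builds actin filaments, had 7.15 and 7.31 in BXD31, against 4 to 7.26 (median 5.43), a difference of 1.80 (limma, adjusted p = 0.315), and BXD38 had the same mean level, 7.23. AI506816 showed 2.01 (adjusted p = 0.315), and its other probe set -0.29 (adjusted p = 1.00). Cux1, a homeodomain factor, lay below all other arrays at 9.49 and 9.63 in BXD31, against 9.64 to 10.66 (median 10.19), a difference of -0.63 ± 0.18 (limma, adjusted p = 0.355). A dimmer probe set of Cux1 lay below all others too, at 5.61 and 5.29 in BXD31, against 5.82 to 7.29 (median 6.33), a difference of -0.91 (limma, adjusted p = 0.660). Stard10, a lipid transfer protein, showed -1.19, and Lst1, a leukocyte transcript, -0.96 (adjusted p = 0.355 for both).

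Pathways and cell types were described through 29 gene lists, which held 522 tested genes. Of these, 4 passed (0.766%), all lower and all named above, against 0.178% lower and 0.0356% higher over all tested genes, and the other 27 lists had 0 calls by limma. Of the 494 genes in those 27 lists, 13 were higher (2.63%) and 11 lower (2.23%) at an unadjusted p under 0.05, against 1.26% and 1.39% over all tested genes. The lists were drawn up with earlier results of these data known, so these shares are a description only.

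Cell cycle and mitosis genes leaned upward without any passing. Of 29 tested, 23 were above the other strains and the median was 0.18, against 56.1% above and a median of 0.03 over all tested genes. Their mean level was 8.66 and 8.58 on the BXD31 arrays, against 8.19 to 8.53 (median 8.43) on the other 18, so the groups did not overlap. Such means were taken for all 29 lists, and no list was tested as a set. The largest difference was that of Bub1, a spindle checkpoint kinase, with 7.97 and 7.64 in BXD31, against 4 to 8.91 (median 6.42), or 1.37 ± 0.48 (limma, adjusted p = 0.970). Prc1, which bundles the spindle midzone, showed 0.64, the mitotic kinesin Kif20a 0.60 and the mitotic kinase Plk1 0.45 (adjusted p = 1.00). The 26 genes of DNA replication had a median of 0.01 and Rrm1, the large subunit of ribonucleotide reductase, the largest value, 0.99. Their mean level was 8.27 and 8.39 in BXD31, within the 7.89 to 8.52 (median 8.27) of the other arrays. Among 14 cell cycle inhibitors the median was 0.16, with Cdkn1c at -0.52 and Txnip at 0.41.

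No stem and progenitor gene of the lists passed. Of 28 transcription factors, 21 were above the other strains (median 0.17). Cbfa2t3, a corepressor that works with Gata1 and Tal1, had 10.23 and 10.14 in BXD31, above all other arrays at 8.64 to 10.13 (median 9.71), a difference of 0.58 ± 0.21 that did not pass (limma, adjusted p = 1.00). Runx1 showed 0.68, Myb 0.52 and Myc 0.49. Of 19 surface molecules, 10 were above (median 0.03). Flt3, the receptor that marks progenitors with lymphoid potential, had 11.79 and 11.59 in BXD31, against 10.66 to 11.67 (median 11.18), a difference of 0.58 ± 0.18 (limma, adjusted p = 0.628). Adgrg1, an adhesion receptor of stem cells, showed 0.66 (adjusted p = 0.812), Cd48 0.49 and Thy1 -0.61. The 16 polycomb and trithorax regulators had a median of 0.17, with Kdm6a at 0.36, Bmi1 at -0.35 and Ezh2 at 0.33.

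Markers of other blood cells did not pass either. Among 21 neutrophil and monocyte markers (median -0.02), the chemokine receptor Ccr2 showed -0.95, the granule enzyme Mpo -0.86 and Ncf1, a subunit of the phagocyte oxidase, -0.79, while Chil3 showed 0.70 (limma, adjusted p = 0.376). The 8 megakaryocyte markers had a median of 0.07, with F2r highest and Vwf, the von Willebrand factor, at 0.32. Of 17 B cell and plasma cell markers (median -0.03), Igha, the immunoglobulin A heavy chain, had 8.44 and 8.52 in BXD31, against 8.39 to 10.84 (median 9.24), a difference of -1.03 ± 0.36 (limma, adjusted p = 0.949). Dntt, the polymerase that adds bases at antigen receptor joints, showed 0.39. The medians were -0.01 for 14 T and NK cell markers, 0.09 for 6 mast cell, basophil and eosinophil markers, 0.07 for 13 dendritic cell and macrophage markers and 0.00 for 11 endothelial and stromal markers. The largest value of each of these 4 lists was that of Thy1, a surface protein of T cells, at -0.61, Cpa3, a mast cell protease, at 0.73, C1qa, a complement gene of macrophages, at 0.60, and Col1a1, a collagen gene, at 0.45.

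Genes of metabolism and protein turnover lay close to the other strains. Of 49 subunits of oxidative phosphorylation, 33 were below (median -0.04), with the complex I genes Ndufb10 at -0.64 and Ndufa3 at -0.63. The median was -0.07 for 30 proteasome subunits, where Psme1 showed -0.64, -0.01 for 22 ribosomal proteins, where Rpl22 showed -0.44, and -0.03 for 15 glycolysis genes, where Hk2 showed 0.55. Of 31 antioxidant and detoxifying enzymes (median 0.02), the retinaldehyde dehydrogenase Aldh1a1 had 5.44 and 5.97 in BXD31, against 5.30 to 7.54 (median 6.91), a difference of -1.06 ± 0.31 (limma, adjusted p = 0.376). The 13 genes of cholesterol and fatty acid synthesis had a median of -0.02, with Fdft1 at -0.58. The median was 0.00 for 24 heat shock and chaperone genes, 0.15 for 24 immediate early genes and 0.06 for 18 apoptosis regulators, with the largest values at Cct7 (-0.36), Nfkbia (-0.53) and Fadd (-0.56).

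None of the 9 tested genes known to differ between the parental strains passed, nor did the tested members of the antigen presentation and interferon response lists. Ifi203, listed among both the parental and the interferon genes, was not counted there, since its called probe set is assigned to several loci. H2-Ea, which is not transcribed from the C57BL/6 haplotype, had 8.15 and 8.22 in BXD31, against 4 to 9.71 (median 8.06) on the other arrays, a difference of 0.80 that did not pass. Nnt, a mitochondrial transhydrogenase, had 6.75 and 7.08 in BXD31, against 4 to 7.86 (median 7.01). Myo5a, the myosin of the dilute coat colour of DBA/2, showed 0.90 and the lipid antigen-presenting gene Cd1d2 -0.50, and the 9 genes had a median of 0.31. Among 23 interferon response genes (median 0.02), the antiviral GTPase Mx1 had 6.60 and 7.54 in BXD31, against 5.17 to 6.98 (median 6.20), a difference of 0.95 ± 0.30 (limma, adjusted p = 0.665). The 11 class II genes had a median of 0.06, with H2-DMb1 at -0.76, and the 15 class I and peptide loading genes -0.14, with Tap2 at -0.33.

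**Figure D4:**
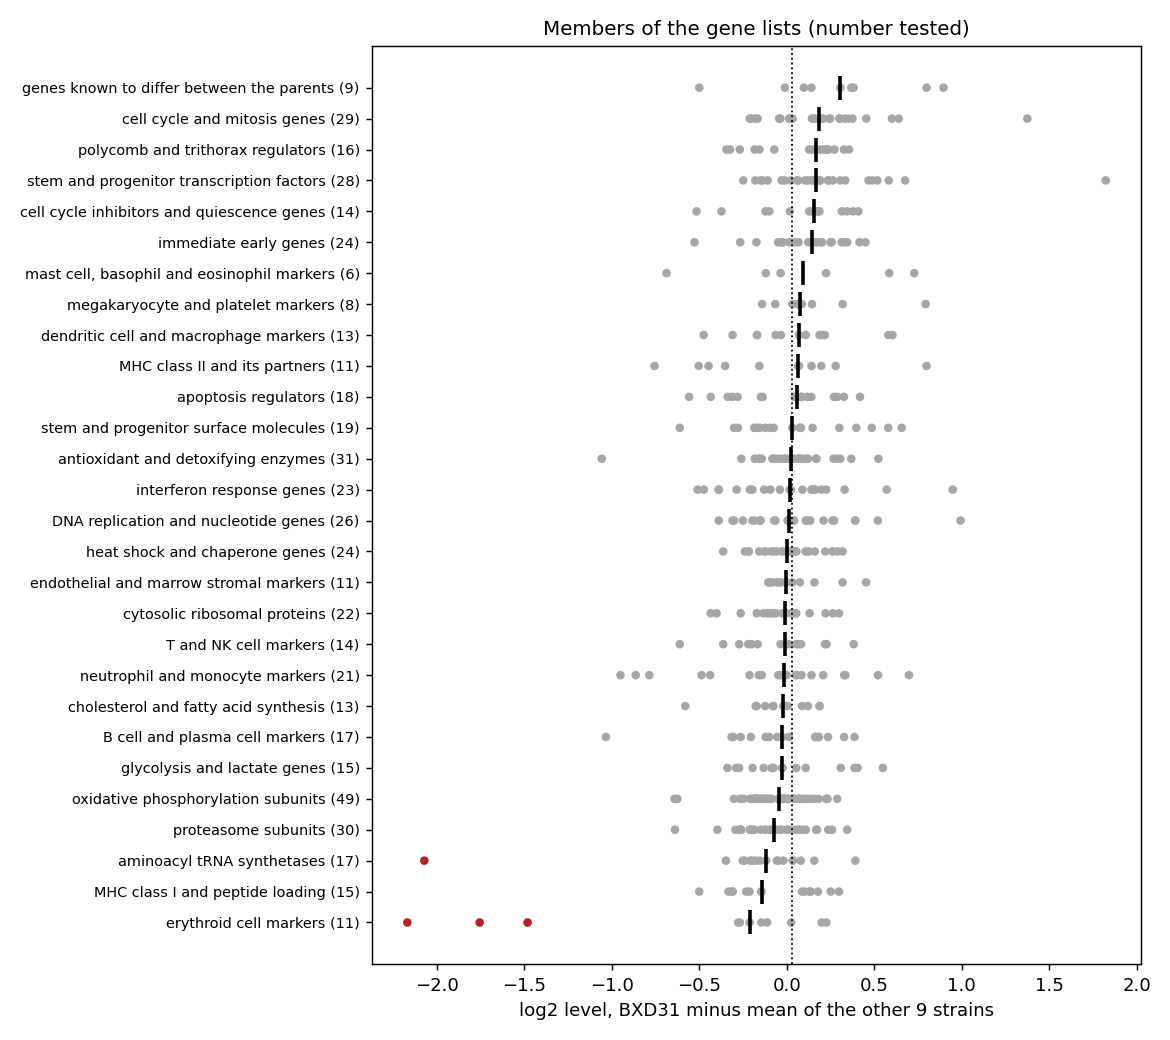
Each grey or red point is 1 tested member of a gene list, at its log2 level in BXD31 minus the mean of the other 9 strains (x axis); red members passed at an adjusted p under 0.05. Black marks are list medians, the dotted line is the median of all tested genes (0.03), and numbers of tested members stand in brackets; the 4 red points are Hba-a1, Hbb-b2, Rhd and Hars.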

How the data were processed

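Total RNA of sorted Lin-Sca-1+c-kit+ marrow cells was hybridised to Affymetrix MG_U74Av2 arrays, a one-colour platform, 2 arrays for each of 22 strains. The authors deposited one table of linear intensities for 12488 probe sets. The 2% trimmed mean of every array lay between 200.071 and 200.092, so the deposited intensities had been scaled to a common mean; what software summarised the probes is not given in the sources used here. Values were not taken from the 44 scanner files.

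After a floor of 16 and log2, all 44 arrays were brought to common quantiles. Left out were 66 control probe sets and those with a mean under the 40th percentile (6.00). Differences were tested with limma 3.58.1 in R 4.3.3 on all 44 arrays (22 residual and 4.37 prior degrees of freedom), two-sided, with Benjamini-Hochberg adjustment over 7453 probe sets and a threshold of 0.05. The script was tested on simulated data. The number of arrays limits the precision. Symbols were read from the probe table of the platform (10833 probe sets with 1 symbol, 396 with several, 1193 with none), of which 10817 matched RefSeq GRCm38.p6; a gene was named from a probe set with 1 symbol, the brightest standing for it. Genes were named if they passed, filled up to 20 by smallest p, with list members by size of difference; called probe sets without 1 symbol and the dimmer one of Fmc1 were added after their values were seen. Arrays within a strain are numbered in accession order. Members, gene lists, tests and alternatives were chosen with earlier results of these data known. The alternatives changed the normalization, floor, filter, arrays, strains, variance model, unit of replication and probe set rule.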

Additional observations from a re-analysis of the deposited data

How the results depend on the processing

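The count of 19 probe sets stayed within 1.5 times in 40 of 43 alternatives. With strain means as units it was 0 (96 at an unadjusted p under 0.05), as were the counts over the lists (0, against 4) and of red-lineage markers (0, against 3). That test measures the difference against the spread among the other strains, not between arrays of a strain. Leaving out single arrays or whole strains other than BXD31 gave 17 to 20 calls and a centred r of 0.0481 to 0.101. The calls reached at most 5 over the lists and 3 among red-lineage markers. Without either BXD31 array fewer probe sets, list members and red-lineage markers passed than in any of these. The lowest count of probe sets outside the range of the other arrays was 37. Without a BXD31 array it was 335 and 391, but then only the 1 array left had to lie outside, a looser criterion. The count outside the range was 56 without the filter on dim probe sets, 24 with the filter at the 60th percentile and 63 without BXD40 and BXD42; that at the 60th percentile gave 2 calls over the lists, from fewer probe sets tested. The split of 4 higher and 15 lower was 12 and 15 without BXD40 and BXD42, 12 and 16 with array weights, 6 and 16 with a floor of 32, 2 and 15 with a floor of 4, and 6 and 14 with the Gapdh difference as a covariate. The 20 arrays alone gave 13 calls, of which 12 were among the 19. The count of probe sets with an unadjusted p under 0.05, 204 in the main fit, also moved. Without the filter on dim probe sets it was 367, but over all 12422 probe sets. Over the same 7453 probe sets it was 416 with array weights and 442 with the Gapdh covariate. These last counts were more than expected at this threshold if no probe set differed, unlike that of the main fit. Of 1151 differences recomputed for named genes, 1035 kept their direction and side of the threshold, 93 kept the direction and lost the call, 23 gained it and 0 reversed. These genes were picked by their p in the same data, so a reversal was unlikely from the start. Strain means as units, the variance models and array weights left each difference unchanged, so direction could not reverse there. With the mean over probe sets, 9 genes passed, Ctse, Cnn3 and Pdxdc1 not among them. A scan batch was not run, since the scanner parameter files name only the chip type. No paired analysis was possible from the labels, because the labels give no replicate numbers shared between strains. The order of the arrays did go with the Gapdh difference. It was higher on the first array than on the second in every strain of the series, as in BXD8 (3.97 and 3.05) and BXD31 (3.18 and 3.13). In the other series only BXD21 and BXD2 went the other way. The main fit left any shift between first and second arrays in the spread between arrays. Whether array order shifted the levels of genes was not tested. With 2 arrays per strain, the median 95% interval, not adjusted for the number of probe sets, reached 0.544 to either side of a difference.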
